A study of Mus musculus with 12 samples.

Results

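The 9 genes described here encode the tight junction scaffold and its closest apical partners: Ocln, Marveld2, F11r, Tjp1, Tjp3, Cgn, Pard3, Cdh1 and Epcam. They were taken as a list of symbols, and all 9 were found among the 54532 Ensembl gene identifiers of the count table. All 9 passed the filter on low counts, which left 17473 genes. The study sequenced messenger RNA of whole lungs of mice carrying Cc10-Cre alone (WT) or Cc10-Cre with both Rhoa alleles floxed (CKO), each given PBS or a treatment labelled CRE, with 3 libraries in each of the 4 groups. All 4 groups thus carry Cc10-Cre, including those called WT. The Cc10 promoter is active in club cells, the secretory cells of the airway lining, and in CKO mice Cre would remove Rhoa from those cells and leave it in the rest of the lung. The labels give neither the age of the mice nor the meaning of CRE, which is kept as a label and is distinct from the Cre recombinase.

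Tight junctions seal the space between neighbouring epithelial or endothelial cells near their apical edge. Transmembrane proteins such as occludin and junctional adhesion molecules bridge adjoining cells, and cytoplasmic plaque proteins of the zonula occludens family (ZO-1, ZO-2, ZO-3) tie them to actin. Polarity proteins position the belt, and the cadherin-based adherens junction lies just beneath it. RhoA, the small GTPase encoded by Rhoa, sets the tension of the actin ring at these junctions, and guanine nucleotide exchange factors that activate it dock on cingulin and other plaque proteins.

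Library totals ran from 16250674 to 21559210 counts, and the labels give 1 batch number for all 12 libraries. They do not say that each library came from a separate mouse, so the p-values measure only the spread between these samples. Levels are counts scaled to library size (CPM). Rhoa itself read 481 ± 8.88 CPM in WT_PBS and 449 ± 45.1 CPM in CKO_PBS, and 525 ± 5.28 and 502 ± 40.0 CPM in the CRE groups of the same order (SD, n = 3). Its CKO minus WT difference was -0.10 ± 0.10 under PBS and -0.07 ± 0.10 under CRE on the log2 scale, with adjusted p of 1 and 0.728. Whole lung holds many cells without Cc10, so this is no check of the genotype labels. The summed level of 9 type 2 alveolar markers was 22286 to 34407 CPM over all libraries. Y-linked counts marked all 3 WT_PBS libraries as male, and 1 CKO_PBS, 2 WT_CRE and 2 CKO_CRE libraries as female. The library CKO_CRE replicate 2 stood apart from the other CKO_CRE libraries, with a quality weight of 0.122 in limma-voom where the other 11 libraries had 0.519 to 3.47. The tests of the 9 genes and the list counts that rest on CKO_CRE are given with and without it.

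On GRCm38 in the GENCODE M21 annotation all 9 are protein-coding genes. Ocln (ENSMUSG00000021638, chr13:100496507-100552718) and Marveld2 (ENSMUSG00000021636, chr13:100595957-100616971) are neighbours on the minus strand, with 43239 bases between them. F11r (ENSMUSG00000038235) lies at chr1:171437535-171464603 on the plus strand. Tjp1 (ENSMUSG00000030516) lies at chr7:65296165-65527781 on the minus strand. Tjp3 (ENSMUSG00000034917) lies at chr10:81273207-81291581 on the minus strand, and 40 bases of its exons overlap Apba3 on the other strand. Cgn (ENSMUSG00000068876) lies at chr3:94760069-94786492 on the minus strand. Pard3 (ENSMUSG00000025812) is by far the longest of the 9 genes, at chr8:127063893-127612286 on the plus strand. Cdh1 (ENSMUSG00000000303, chr8:106603351-106670246) and Epcam (ENSMUSG00000045394, chr17:87635979-87651129) are also on the plus strand. Cgn shares a match of 1716 bases at 98.7% identity with BC021767, which read at most 0.79 CPM as a group mean, so the Cgn values are uncertain by reads that the copy could take or give.

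Promoter sequence is shown because the CACCTG element is the core that the Cdh1 repressors Snai1, Snai2, Zeb1 and Zeb2 read, and transcripts of Snai1, Snai2 and Zeb1 changed under CRE in WT. The 250 bases before the RefSeq start (GRCm38.p6) are printed for 2 genes that rose and 2 that fell under CRE in WT. Capitals mark CACCTG or its reverse complement CAGGTG, searched on both strands. They lie at chr17:87635729-87635978 (plus strand) for Epcam, chr10:81291582-81291831 (minus) for the outer of the Tjp3 starts, chr1:171437311-171437560 (plus) for F11r and chr7:65371245-65371494 (minus) for Tjp1. The RefSeq start of Tjp1 falls inside the longer GENCODE gene.
Epcam: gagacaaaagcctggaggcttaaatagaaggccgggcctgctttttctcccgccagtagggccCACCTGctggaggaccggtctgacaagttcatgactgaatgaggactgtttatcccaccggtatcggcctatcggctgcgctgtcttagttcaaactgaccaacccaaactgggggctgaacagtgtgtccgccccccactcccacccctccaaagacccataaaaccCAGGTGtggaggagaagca
Tjp3: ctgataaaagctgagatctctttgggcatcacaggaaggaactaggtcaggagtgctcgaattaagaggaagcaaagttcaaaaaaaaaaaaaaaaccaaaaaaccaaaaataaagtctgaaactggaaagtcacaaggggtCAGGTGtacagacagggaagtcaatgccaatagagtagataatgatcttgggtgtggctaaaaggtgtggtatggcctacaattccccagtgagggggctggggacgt
F11r: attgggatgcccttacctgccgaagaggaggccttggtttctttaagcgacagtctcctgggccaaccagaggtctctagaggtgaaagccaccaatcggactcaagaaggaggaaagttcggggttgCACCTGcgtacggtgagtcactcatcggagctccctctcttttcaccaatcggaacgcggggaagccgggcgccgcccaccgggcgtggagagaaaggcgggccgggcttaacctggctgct
Tjp1: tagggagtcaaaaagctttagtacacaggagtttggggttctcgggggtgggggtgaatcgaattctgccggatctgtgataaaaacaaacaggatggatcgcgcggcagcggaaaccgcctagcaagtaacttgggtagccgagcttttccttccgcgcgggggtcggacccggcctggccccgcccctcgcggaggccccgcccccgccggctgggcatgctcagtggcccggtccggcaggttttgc
Windows of 300 bases, from 250 before to 50 after the start, were found for 8 of the 9 genes, all but Cdh1, and 12 windows in all were searched. CACCTG occurred in 20.2% of the 32851 windows of all genes. It was found in a window of Epcam, Tjp3, F11r, Ocln, Marveld2 and Pard3, and not in those of Tjp1 or Cgn. Genes that rose and genes that fell were thus both among those with a match. Tjp3, Ocln, Marveld2 and Pard3 had 2 windows each, so a count of genes is not on the scale of the share of windows. The 2 windows of Ocln overlap and share a site, as do those of Marveld2. In Pard3 only the window at chr8:127299362-127299661 held matches. AACCGGTT, the palindrome read by grainyhead-like factors, occurred in 0.146% of all windows and in none of the 12. A match describes letters in a window and says nothing of binding.

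Under CRE in WT lung most of these genes fell. Of the 9 genes, 6 were lower (Tjp1, Ocln, Pard3, Cgn, F11r and Marveld2), 2 were higher (Tjp3 and Epcam), and Cdh1 did not pass the threshold of an adjusted p below 0.05. The background in this contrast was high: 57% of the 17473 tested genes were called, 28.6% higher and 28.4% lower. The median log2 fold change was -0.53 over the 9 genes and 0.01 over all tested genes. The libraries of the groups did not overlap for 8 of the 9 genes, against 68.5% of all tested genes.

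**Figure D1:**
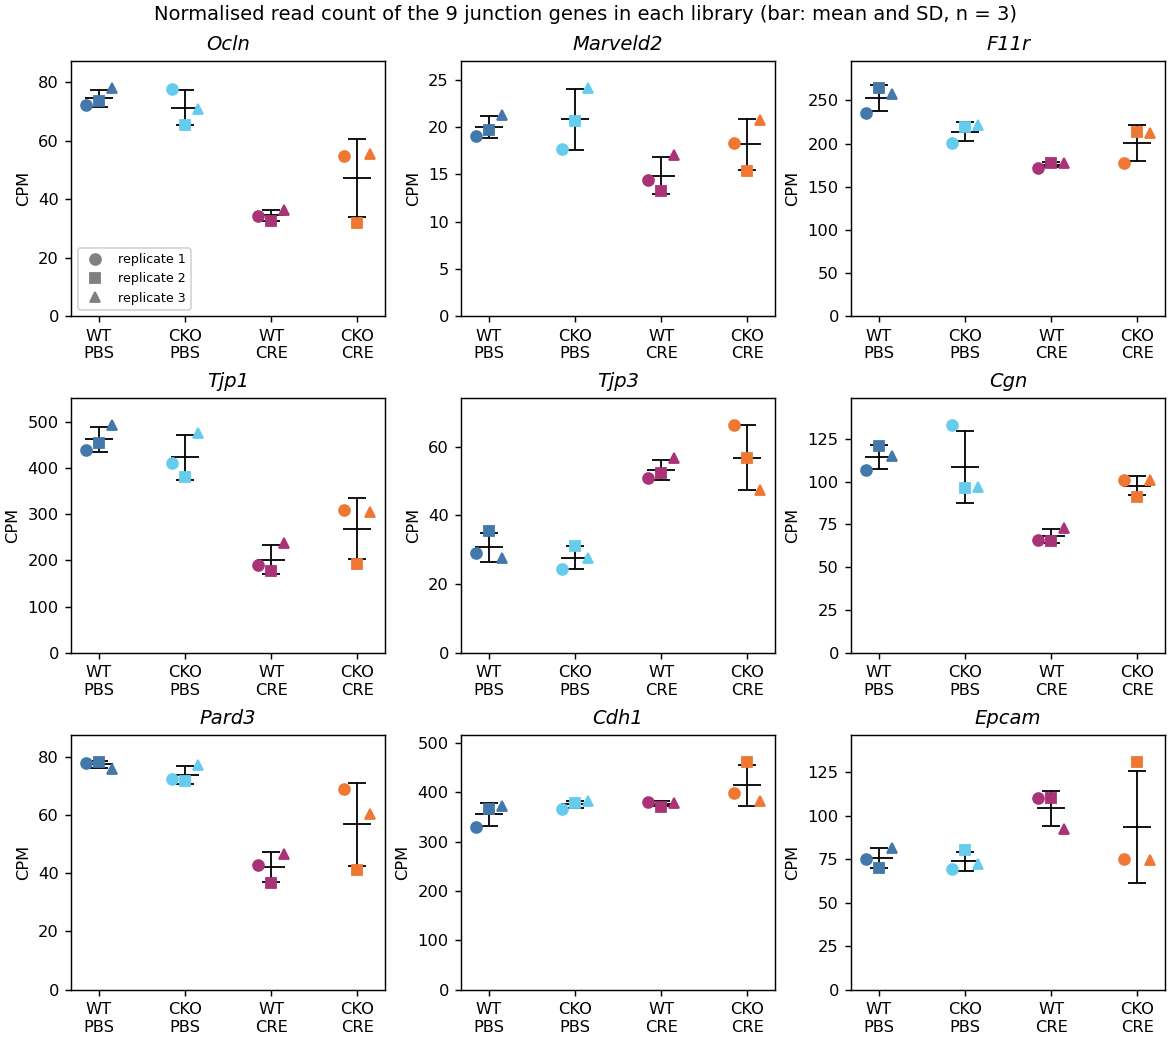
CPM (vertical axes, from 0) of each of the 9 genes in the 4 groups, with 1 point per library, marker shapes for replicates 1 to 3, and bars for the mean and SD (n = 3). Tjp1, Ocln, Pard3 and Cgn drop from WT_PBS to WT_CRE and Tjp3 climbs, while the CKO_CRE points are spread, with replicate 2 lowest for Ocln and Tjp1 and highest for Epcam.

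Among the transmembrane proteins, Ocln encodes occludin, an integral membrane protein of the tight junction strand. Ocln read 72.0, 73.4 and 77.8 CPM in the WT_PBS libraries and 34.3, 32.6 and 36.4 CPM in the WT_CRE libraries. Every WT_CRE library was below every WT_PBS library, and the log2 fold change was -1.11 ± 0.17 (SE, adjusted p = 0.000228). Its chromosomal neighbour Marveld2 encodes tricellulin, which seals the corners where several cells meet. Marveld2 had the fewest reads of the 9 genes, with 19.1, 19.7 and 21.3 CPM in WT_PBS against 14.4, 13.2 and 17.0 CPM in WT_CRE, and its lowest raw count was 229. The groups did not overlap, and the change was -0.43 ± 0.15 (adjusted p = 0.0272). This call was lost with sex as a covariate (adjusted p = 0.0679) and without WT_PBS replicate 2 or 3 or WT_CRE replicate 1 or 2 (0.0549 to 0.104). F11r encodes junctional adhesion molecule A, which is also present on endothelium, leukocytes and platelets. F11r read 236, 264 and 258 CPM in WT_PBS, against 172, 177 and 177 in WT_CRE. The WT_CRE libraries lay close together and below all of WT_PBS, with a change of -0.53 ± 0.09 (adjusted p = 0.000518). The summed level of 8 immune markers rose from between 2154 and 2344 CPM to between 5211 and 6136 CPM in the same contrast, and its part in the F11r value was not tested.

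The plaque proteins moved in both directions. Tjp1 encodes ZO-1, the scaffold that binds occludin and claudins and links them to actin, in endothelium as well as epithelium. Tjp1 had the largest fall of the 9 genes, from 440, 454 and 493 CPM in WT_PBS to 190, 178 and 237 CPM in WT_CRE. No WT_CRE library came near the WT_PBS range, and the log2 fold change was -1.20 ± 0.17 (adjusted p = 0.000179). Tjp3 encodes ZO-3, the family member restricted largely to epithelium. It went the other way, from 29.0, 35.4 and 27.7 CPM in WT_PBS to 51.0, 52.4 and 56.6 CPM in WT_CRE. Its change was 0.80 ± 0.14 (adjusted p = 0.000515), without overlap. Apba3, which shares 40 exonic bases with Tjp3, changed by 0.05 ± 0.09 (adjusted p = 0.615). Cgn encodes cingulin, the coiled-coil plaque protein that binds the ZO proteins and exchange factors of RhoA. Cgn read 107, 121 and 115 CPM in WT_PBS, against 65.9, 65.5 and 72.8 in WT_CRE. It fell in every WT_CRE library, by 0.75 ± 0.12 on the log2 scale (adjusted p = 0.000321).

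Pard3 encodes the polarity scaffold that, with atypical protein kinase C and Par6, sets the apical border. Pard3 read 78.1, 78.4 and 76.1 CPM in WT_PBS, against 43.0, 36.8 and 46.8 in WT_CRE. The groups did not overlap and the change was -0.88 ± 0.15 (adjusted p = 0.000565). Pard3 has 14506 bases of exon, and a fit centred on genes of like exon length gave -0.33 (adjusted p = 0.00508). That correction is described with the length relation further on.

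The epithelial adhesion molecules were Cdh1 and Epcam. Cdh1 encodes E-cadherin, the adhesion molecule of the epithelial adherens junction. Cdh1 read 329, 367 and 372 CPM in WT_PBS, against 380, 371 and 379 in WT_CRE. The groups overlapped, and the change of 0.08 ± 0.09 was not called (adjusted p = 0.47). Its 95% confidence interval ran from -0.12 to 0.28, which does not reach the size of the Tjp1, Ocln or Pard3 change. Epcam encodes an epithelial adhesion molecule of the lateral membrane that is known to bind and stabilise claudin-7. Epcam read 75.3, 70.1 and 81.4 CPM in WT_PBS, against 110, 110 and 92.6 in WT_CRE. The WT_CRE libraries were all higher, by 0.46 ± 0.18 (adjusted p = 0.048), close to the threshold. The Epcam call was lost with sex as a covariate (0.36, adjusted p = 0.176), in the length-centred fit (0.25, adjusted p = 0.192) and when any 1 of the WT_PBS or CKO_PBS libraries, or WT_CRE replicate 1 or 2, was left out (adjusted p = 0.0586 to 0.139).

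Per kilobase of exon, the order of levels changed. In WT_PBS, F11r was highest at 94.8 CPM per kb, followed by Cdh1 at 77.9, Tjp1 at 59.2 and Epcam at 34.4. Cgn at 19.0 and Ocln at 17.6 overlapped in their library ranges and cannot be ordered. Tjp3 at 8.27, Marveld2 at 5.93 and Pard3 at 5.35 CPM per kb were lowest. In WT_CRE, Cdh1 led at 82.4 CPM per kb, ahead of F11r at 65.8 and Epcam at 47.5. Tjp1 had dropped below Epcam to 25.8, and Tjp3 at 14.4 now stood above Cgn at 11.3 and Ocln at 8.15. In CKO_CRE the means were 90.6 for Cdh1, 75.6 for F11r, 42.7 for Epcam, 34.5 for Tjp1, 16.2 for Cgn, 15.3 for Tjp3 and 11.2 CPM per kb for Ocln. Epcam was above Tjp1 only in replicate 2, at 59.9 against 24.8 CPM per kb. In replicates 1 and 3 Epcam was at 34.1 and 34.0, below Tjp1 at 39.7 and 38.9. The CKO_CRE library range of Tjp3 overlapped those of Cgn and Ocln, so Tjp3 cannot be ordered against them. These levels assume that reads spread over the whole exon union, which few transcripts fill.

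In CKO lung fewer of the 9 genes passed the test under CRE. Tjp3 was higher, Tjp1 and Ocln were lower, and the other 6 were not called, where 39.1% of all tested genes were called, 20.6% higher and 18.5% lower. The median log2 fold change over the 9 genes was -0.15, against 0.00 over all tested genes. The groups did not overlap for 5 of the 9 genes, close to the 49% of all tested genes.

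Tjp3 read 24.4, 31.2 and 27.5 CPM in CKO_PBS, against 66.3, 56.7 and 47.3 in CKO_CRE. All 3 CKO_CRE libraries were higher, by 1.03 ± 0.14 (adjusted p = 0.000309), and by 1.03 (adjusted p = 0.000361) without replicate 2. Tjp1 read 412, 381 and 476 CPM in CKO_PBS, against 310, 193 and 304 in CKO_CRE, a change of -0.65 ± 0.17 (adjusted p = 0.0113). The fall was deepest in replicate 2 of CKO_CRE, and without that library it was -0.46 (adjusted p = 0.0156). Ocln read 77.5, 65.3 and 70.9 CPM in CKO_PBS, against 54.6, 31.8 and 55.3 in CKO_CRE, a change of -0.59 ± 0.17 (adjusted p = 0.0149). Replicate 2 was again lowest, and without it the change shrank to -0.37 (adjusted p = 0.00577). Both calls were lost when only the CKO libraries were fitted (adjusted p = 0.0537 for Tjp1 and 0.0748 for Ocln). The Tjp1 call was also lost without CKO_PBS replicate 3 (adjusted p = 0.0505) and the Ocln call without CKO_PBS replicate 1 (0.0536).

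The genes that were called in WT and not in CKO had log2 fold changes of smaller size in CKO, and Cdh1 was called in neither. With like SE in both contrasts, genes picked by that rule tend to have the smaller change in CKO. Their sizes alone therefore show no difference between the genotypes. Pard3 read 72.4, 71.9 and 77.3 CPM in CKO_PBS, against 69.1, 41.1 and 60.5 in CKO_CRE (-0.38 ± 0.15, adjusted p = 0.0677). It passed the threshold with the replicate block (-0.40, adjusted p = 0.0379), in limma-voom (-0.29, adjusted p = 0.0109) and without CKO_CRE replicate 1 (-0.54, adjusted p = 0.0125). Its change shrank to -0.19 without CKO_CRE replicate 2 (adjusted p = 0.169). Cgn read 133, 96.2 and 97.0 CPM in CKO_PBS, against 101, 91.2 and 101 in CKO_CRE (-0.15 ± 0.12, adjusted p = 0.325). F11r read 201, 219 and 221 CPM in CKO_PBS, against 177, 214 and 212 in CKO_CRE (-0.09 ± 0.09, adjusted p = 0.476), and was called only in the length-centred fit among the alternatives run (-0.25, adjusted p = 0.0325). For both genes the groups overlapped, and without CKO_CRE replicate 2 the changes were -0.10 for Cgn and -0.13 for F11r (adjusted p = 0.577 and 0.289). Marveld2 read 17.7, 20.7 and 24.1 CPM in CKO_PBS, against 18.3, 15.4 and 20.8 in CKO_CRE (-0.20 ± 0.15, adjusted p = 0.308), and changed by -0.09 without replicate 2 (adjusted p = 0.688). Cdh1 read 367, 378 and 382 CPM in CKO_PBS, against 398, 462 and 383 in CKO_CRE, without overlap but also without a call (0.14 ± 0.09, adjusted p = 0.243). Without replicate 2 the Cdh1 change was 0.06 (adjusted p = 0.612). Epcam read 69.5, 80.0 and 72.2 CPM in CKO_PBS, against 74.9, 131 and 74.7 in CKO_CRE (0.34 ± 0.18, adjusted p = 0.16). Its single high value was replicate 2, and without it the Epcam change was 0.02 (adjusted p = 0.909). Whether the responses of the genotypes differ is a separate test.

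**Figure D2:**
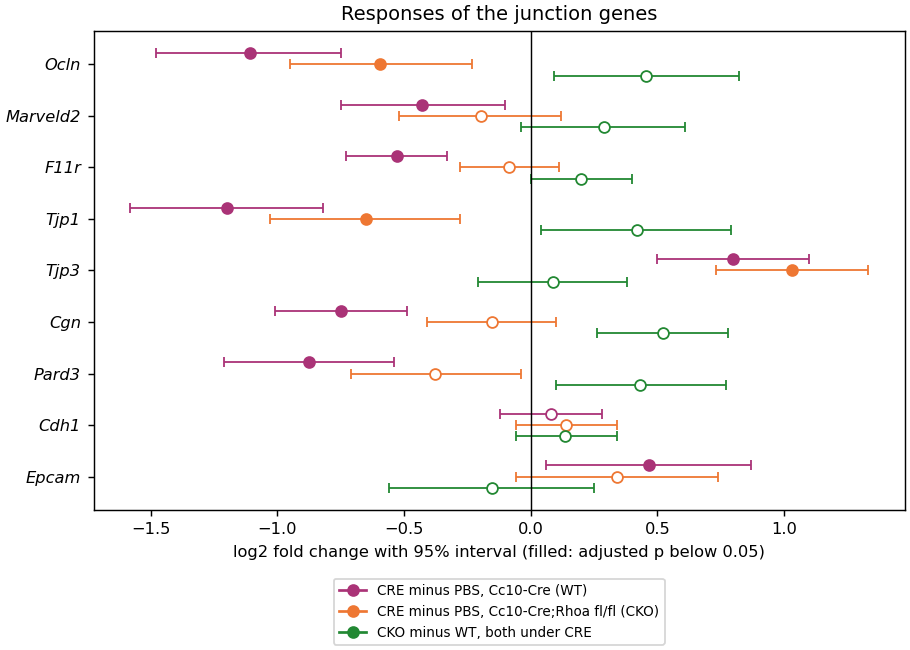
Log2 fold change (horizontal axis) of each gene with its 95% confidence interval for CRE minus PBS in WT, CRE minus PBS in CKO, and CKO minus WT under CRE, with filled points for an adjusted p below 0.05. Tjp3 is the sole gene above 0 and called in both genotypes, and none of the CKO minus WT points is filled.

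Without CRE no genotype difference was called at these genes. None of the 9 was called in CKO minus WT under PBS by edgeR, where 0.109% of all tested genes were called, and 1 of the 9 had an unadjusted p below 0.05, as did 930 of the 17473 tested genes. DESeq2 and limma-voom also called 0 of the 9. The lowest p belonged to F11r, which read lower in all 3 CKO_PBS libraries (-0.24 ± 0.09, adjusted p = 0.754), a separation that 15.2% of all tested genes had. The other 8 changes lay between -0.15 and 0.08.

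Under CRE, 8 of the 9 genes read higher in CKO than in WT on the fitted scale, and none was called by edgeR, against 0.916% of all tested genes. Of the 9, 5 had an unadjusted p below 0.05, as did 3238 of all 17473. The DESeq2 Wald test called 1 of the 9 (Cgn) and 838 genes in all. Limma-voom with quality weights called 7 of the 9 and 7645 genes in all. Those 7 were Ocln (0.67), Tjp1 (0.64), Cgn (0.59), Pard3 (0.53), Marveld2 (0.48), F11r (0.26) and Epcam (-0.50), with adjusted p in limma-voom from 0.000133 to 0.00699. The median was 0.29 over the 9 genes and 0.01 over all tested genes. Cgn came nearest to the threshold, with 65.9, 65.5 and 72.8 CPM in WT_CRE, against 101, 91.2 and 101 in CKO_CRE. All 3 CKO_CRE libraries were above all 3 WT_CRE libraries, replicate 2 included, and the difference was 0.52 ± 0.12 (adjusted p = 0.0649). Cgn passed the threshold in the DESeq2 Wald test (adjusted p = 0.00524), with no low-count filter (0.0148) and without CKO_PBS replicate 1 (0.0195). The groups also did not overlap for F11r (0.20 ± 0.09, adjusted p = 0.266) and Cdh1 (0.14 ± 0.09, adjusted p = 0.429), where 15.1% of all tested genes did not overlap. For Ocln (0.46 ± 0.17, adjusted p = 0.192), Pard3 (0.43 ± 0.15, adjusted p = 0.185) and Tjp1 (0.42 ± 0.17, adjusted p = 0.23) replicate 2 of CKO_CRE lay inside or below the WT_CRE range and the other 2 libraries lay above it. Marveld2 differed by 0.29 ± 0.15, Tjp3 by 0.09 ± 0.14 and Epcam by -0.15 ± 0.18, with adjusted p of 0.312, 0.737 and 0.66.

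The difference between the CRE responses, CKO minus WT, was not called for any of the 9 genes by edgeR, with 0.0458% of all tested genes called. For 5 of the 9 genes, and for 1801 of all 17473, the unadjusted p was below 0.05. Cgn had an interaction of 0.59 ± 0.17 (adjusted p = 0.353) and F11r of 0.44 ± 0.13 (adjusted p = 0.365). Tjp1, Ocln and Pard3 had interactions of 0.55 ± 0.24, 0.52 ± 0.23 and 0.50 ± 0.22, with adjusted p of 0.475, 0.479 and 0.463. DESeq2 called 0 of the 9 and 128 genes in all, and limma-voom called 6 of the 9 and 4371 genes in all. Those 6 were Tjp1 (0.74), Ocln (0.72), Cgn (0.68), Pard3 (0.58), F11r (0.50) and Epcam (-0.45), with adjusted p in limma-voom from 0.00267 to 0.0242.

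The genotype comparison turned on 1 library. Without CKO_CRE replicate 2, edgeR called 5 of the 9 genes in CKO minus WT under CRE. Ocln (0.68, adjusted p = 0.000287), Pard3 (0.62, adjusted p = 0.000969), Tjp1 (0.61, adjusted p = 0.0039) and Cgn (0.57, adjusted p = 0.0056) were higher in the remaining CKO_CRE libraries, and Epcam (-0.48, adjusted p = 0.00427) was lower. The other 4 were not called, at 0.40 for Marveld2, 0.16 for F11r, 0.09 for Tjp3 and 0.05 for Cdh1 (adjusted p = 0.0617, 0.207, 0.675 and 0.618). The interaction was then called for 6 of the 9, at 0.74 for Ocln (adjusted p = 0.00249), 0.69 for Pard3 (0.00651), 0.74 for Tjp1 (0.0142), 0.64 for Cgn (0.0244), 0.40 for F11r (0.0418) and -0.44 for Epcam (0.04). It was not called for Marveld2, Tjp3 or Cdh1 (0.34, 0.24 and -0.02). The count over all tested genes rose as well, from 160 to 5112 under CRE and from 8 to 2660 for the interaction, or 28.5% and 14.8% of the genes tested in that fit. Calls of these genes without that library therefore stood among calls of many genes. With it left out, CKO_CRE holds 2 libraries, 1 male and 1 female.

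Markers of other cells moved with replicate 2 of CKO_CRE. The summed level of 8 immune markers was 3572, 7059 and 5377 CPM in CKO_CRE replicates 1, 2 and 3, against 5211 to 6136 CPM in WT_CRE. The 8 club cell markers summed to 3448, 1857 and 2802 CPM in the same libraries and to between 1820 and 1980 CPM in WT_CRE. The 9 type 1 alveolar markers summed to 4538, 3398 and 5043 CPM against 2834 to 3118 CPM, and the 8 endothelial markers to 3083, 1934 and 2844 CPM against 2012 to 2299 CPM. Replicate 2 thus had the most immune and the least club, type 1 and endothelial marker RNA of the 3 libraries, and the part of these in the junction values was not tested.

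**Figure D3:**
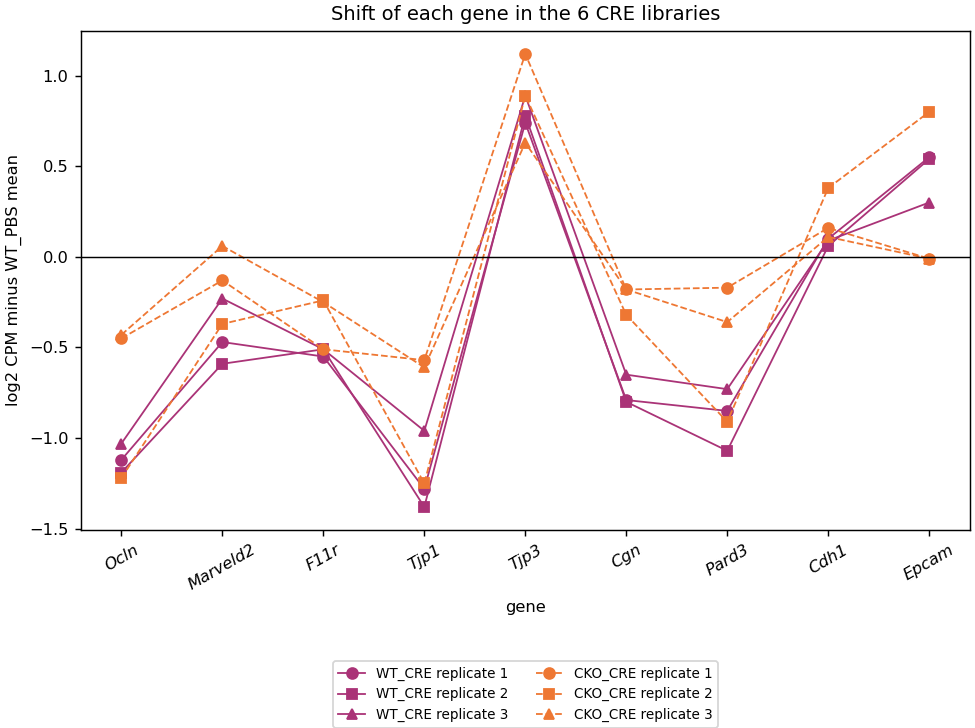
Log2 CPM of each gene in the 6 CRE libraries minus the WT_PBS mean (vertical axis), with solid lines for WT_CRE and dashed lines for CKO_CRE. CKO_CRE replicate 2 runs with the WT_CRE lines at Ocln, Tjp1 and Pard3 and above all of them at Cgn, and at Epcam it is highest at 0.80 while the other 2 CKO_CRE libraries are at -0.01.

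Within the groups some genes moved together from library to library. After removal of group means, Pearson's r over the 12 libraries was 0.88 between Tjp1 and Ocln, 0.91 between Tjp1 and Pard3 and 0.883 between Ocln and Pard3. Epcam went opposite to Ocln, with r = -0.936, and to Pard3, with r = -0.905. Tjp3 and Tjp1 had r = -0.01 within groups and r = -0.815 across all 12 libraries. These values share libraries and depth, hold the CKO_CRE libraries and are given as a description. They are not corrected for exon length, by which libraries of 1 group also differed, as described further on. The r values among Tjp1, Ocln, Pard3 and Epcam lean on CKO_CRE replicate 2, and r without that library was not computed. Relative to the WT_PBS mean, Ocln was at -0.45, -1.22 and -0.43 in CKO_CRE replicates 1, 2 and 3. In the same libraries Epcam was at -0.01, 0.80 and -0.01, Tjp1 at -0.57, -1.25 and -0.61, and Pard3 at -0.17, -0.91 and -0.36.

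By Pearson's r of log2 CPM over the 12 libraries, the genes most like Tjp1 were Dip2c (r = 0.997) and Bmpr2 (0.995). Those most like Ocln were Mettl7a1 (0.997) and Olfml2a (0.996), and those most like Pard3 were Pitpnm2 and Ski (both 0.992). Tjp3 was most like Pigr (0.98), which encodes the receptor that carries polymeric immunoglobulins across epithelium, and Nucb2 (0.974). Epcam was most like Bcap31 (0.979) and Tubb4b (0.977). Cgn was most like Fam20a (0.969) and Abcg1 (0.957), and Marveld2 most like D17Wsu92e (0.955) and Apbb2 (0.951). F11r (Il12b, 0.913, and Sod1, 0.912) and Cdh1 (Mcu, 0.893, and Ppwd1, 0.88) had the lowest best matches of the 9 genes. These values too are a description over libraries that share the CRE contrast, without correction for exon length.

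A list of 67 junction partners gave the wider setting, and all 67 passed the count filter. Under CRE in WT, 40 of the 67 fell and 9 rose, with a median of -0.55, where 28.4% of all tested genes were lower and 28.6% higher. In CKO, 33 fell and 8 rose, with a median of -0.38, where 18.5% and 20.6% of all tested genes did. These CKO counts were 28 and 7 without CKO_CRE replicate 2, with a median of -0.28, and 29.9% of all tested genes were called. The role counts that follow are to be read against the same shares. Neither these counts nor the role counts are corrected for exon length, with which the CRE response varied, as described further on. None was called in CKO minus WT under PBS by edgeR, with 1 at an unadjusted p below 0.05 and 0 by DESeq2 or limma-voom. Under CRE, 0 were called in CKO minus WT, with 22 at an unadjusted p below 0.05, 6 by the DESeq2 Wald test and 41 by limma-voom. Over all tested genes these counts were 160, 3238, 838 and 7645. For the interaction 0 were called, with 12 at an unadjusted p below 0.05, 0 by DESeq2 and 30 by limma-voom. Over all tested genes they were 8, 1801, 128 and 4371. Without CKO_CRE replicate 2 the counts for CKO minus WT under CRE and the interaction became 34 and 23. Of all genes tested in that fit, 28.5% and 14.8% were called.

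Of 9 further plaque proteins, 4 fell in WT under CRE. Magi3 and Magi1, scaffolds with inverted domain order relative to other membrane-associated guanylate kinases, changed by -1.89 ± 0.21 and -1.15 ± 0.18 (adjusted p = 3.63e-05 and 0.000327). Magi3 went from 216 ± 14.9 to 58.0 ± 10.7 CPM, a deeper fall than that of Tjp1. Mpdz fell by 1.04 ± 0.22 (adjusted p = 0.00185), and Cgnl1, the paralog of Cgn, fell by 0.57 ± 0.13 (adjusted p = 0.00268). Ybx3, the Y-box factor that binds ZO-1, rose by 0.30 ± 0.10 (adjusted p = 0.0279), and Sympk rose by 0.19 ± 0.07 (adjusted p = 0.0435). In CKO 3 of the 9 fell and none rose, and Magi3 changed by -1.04 ± 0.20 (adjusted p = 0.00253). With CKO_CRE replicate 2 left out, 2 fell and Magi3 changed by -0.80 ± 0.13 (adjusted p = 0.000764).

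Of 10 transmembrane partners, 4 fell in WT and none rose, a smaller share called than the 57% of all tested genes. They were Jam2 (-0.84 ± 0.14), Ildr1 (-0.68 ± 0.16), Cxadr (-0.44 ± 0.11) and Lsr (-0.26 ± 0.10), with adjusted p from 0.000437 to 0.0418. Ildr1 and Lsr encode angulins, which recruit tricellulin to the corners of cells, and moved in the direction of Marveld2. The other angulin gene of the list was not called in WT. In CKO 2 of the 10 fell, or 1 without CKO_CRE replicate 2. Ildr1 had a change of -0.06 ± 0.16 in CKO (adjusted p = 0.785), and of 0.12 ± 0.11 without that library (adjusted p = 0.457).

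Of 16 polarity genes, 12 fell and 2 rose in WT, with a median of -1.03. Pard3b, the paralog of Pard3, changed by -1.80 ± 0.33 (adjusted p = 0.000696). Mpp5 (Pals1, of the Crumbs complex) changed by -1.60 ± 0.17 (adjusted p = 3.09e-05). Prkci, the atypical protein kinase C that binds Par3, changed by -1.43 ± 0.16 (adjusted p = 4.6e-05), and Pard6b by -1.29 ± 0.18 (adjusted p = 0.000136). Pard6a rose by 0.54 ± 0.17 and Llgl2 by 0.38 ± 0.08 (adjusted p = 0.0175 and 0.00253). In CKO 12 of the 16 also fell and 2 rose, and Prkci changed by -0.80 ± 0.16 (adjusted p = 0.00292). With CKO_CRE replicate 2 left out, 11 fell and 1 rose, and Prkci changed by -0.60 ± 0.09 (adjusted p = 0.000509).

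Of 14 adherens junction genes, 9 fell and 2 rose in WT. Nectin3 (-1.62 ± 0.18), Cdh2 (N-cadherin, -1.52 ± 0.19), Cdh5 (VE-cadherin of endothelium, -1.40 ± 0.20) and Vcl (vinculin, -1.36 ± 0.20) fell, with adjusted p from 3.53e-05 to 0.00019. Cdh3, which encodes P-cadherin, rose from 1.23 ± 0.26 to 4.01 ± 1.38 CPM (1.70 ± 0.30, adjusted p = 0.000637), and Nectin2 rose by 0.49 ± 0.09 (adjusted p = 0.000713). The cadherins of this list thus differed from Cdh1, whose interval included 0. In CKO 8 of the 14 fell and 3 rose, or 7 and 3 without CKO_CRE replicate 2.

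Of 10 regulators of RhoA at junctions, 9 fell in WT and none rose. Arhgap35 (p190RhoGAP) changed by -1.23 ± 0.20 and the exchange factors Arhgef11 and Arhgef18 by -1.14 ± 0.16 and -0.99 ± 0.14. The effector kinase Rock2 changed by -0.99 ± 0.14, and adjusted p for these 4 was 0.000162 to 0.000354. In CKO 6 of the 10 fell and 1 rose, or 5 and 1 without CKO_CRE replicate 2. Of 8 partners of Epcam, 3 rose and 2 fell in WT, close to the share of all tested genes called, and in CKO 2 rose and 2 fell with or without that library. Among those that rose, the protease gene St14 changed by 0.43 ± 0.07 and Cldn7 by 0.34 ± 0.11 (adjusted p = 0.000464 and 0.0193). Bace1 fell by 1.14 ± 0.21 and Prss8 by 0.72 ± 0.11 (adjusted p = 0.000742 and 0.000316).

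**Figure D4:**
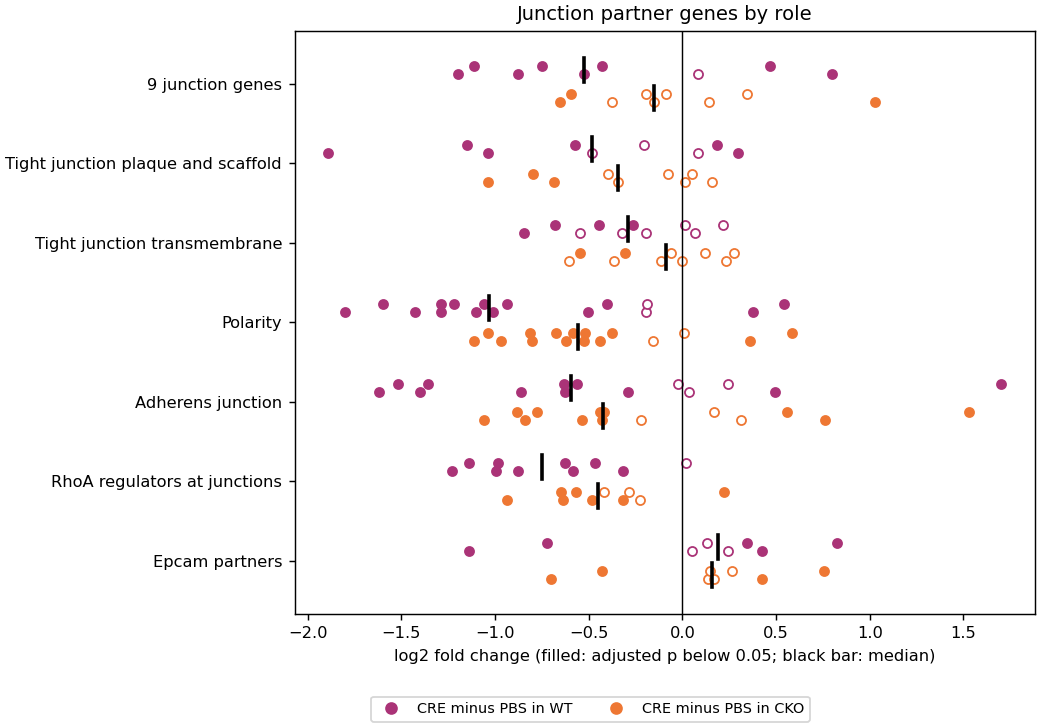
Log2 fold change (horizontal axis) of the 9 junction genes and of the 67 partner genes by role, for CRE minus PBS in WT and in CKO, with filled points for an adjusted p below 0.05 and black bars for medians. Polarity genes have the lowest WT median, at -1.03, and the Epcam partners have a WT median of 0.19.

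Transcription factors that control epithelial adhesion genes were a further list of 17, of which 16 passed the filter. In WT 8 of the 16 fell and 3 rose under CRE, where 28.4% of all tested genes were lower and 28.6% higher. In CKO 4 fell and 1 rose, a smaller share than the 39.1% of all tested genes called, and without CKO_CRE replicate 2, 3 fell and 1 rose. Among the repressors of Cdh1, Snai1 rose from 14.3 ± 0.82 to 25.2 ± 4.36 CPM (0.81 ± 0.17, adjusted p = 0.00158). Snai2 fell by 1.20 ± 0.24 and Zeb1 by 1.07 ± 0.17 (adjusted p = 0.00122 and 0.000347). Of the epithelial factors, Grhl3 fell by 2.30 ± 0.57, Grhl1 by 1.19 ± 0.18, Ovol2 by 0.97 ± 0.30 and Grhl2 by 0.62 ± 0.16, with adjusted p of 0.00486, 0.000206, 0.0144 and 0.00658. Elf3 rose by 0.91 ± 0.15 and Ehf by 0.59 ± 0.13 (adjusted p = 0.000448 and 0.00249). In CKO the changes of Grhl1, Grhl2 and Ovol2 were -0.19 ± 0.17, -0.20 ± 0.16 and -0.34 ± 0.30, and none was called (adjusted p = 0.409, 0.345 and 0.384). Leaving out CKO_CRE replicate 2 gave -0.23 ± 0.20, -0.01 ± 0.11 and -0.50 ± 0.33 (adjusted p = 0.415, 0.967 and 0.291). Grhl3, with the widest SE of the factors named, changed in CKO by 0.22 ± 0.48 without that library (adjusted p = 0.77). No factor of the list was called in CKO minus WT under CRE or in the interaction by edgeR. Of the 16, 2 and 3 had an unadjusted p below 0.05, as did 3238 and 1801 of all 17473. Without CKO_CRE replicate 2, 4 and 3 of the 16 were called, all higher. These are 25% and 18.8%, near the 28.5% and 14.8% of all genes called in that fit.

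The cell types that carry these junctions changed their marker RNA under CRE in both genotypes. In bulk tissue, fewer cells of a type and less junction RNA per cell cannot be told apart. In WT all 8 club cell markers fell (median -2.17), 8 of 9 type 1 alveolar markers fell (median -1.59), 7 of 8 ciliated and 7 of 8 endothelial markers fell, and 4 of 9 type 2 alveolar markers fell. All 6 goblet cell markers and all 8 immune markers rose, with medians of 2.90 and 1.34. In CKO all 8 club, 8 of 9 type 1, 1 of 8 ciliated and 5 of 8 endothelial markers fell, and all goblet and immune markers rose. Without CKO_CRE replicate 2, 8 of 8 club, 7 of 9 type 1, 1 of 8 ciliated and 5 of 8 endothelial markers fell, and 6 of 6 goblet and 7 of 8 immune markers rose. Summed club markers went from between 8829 and 9050 CPM in WT_PBS to between 1820 and 1980 CPM in WT_CRE, and from between 6441 and 7486 to between 1857 and 3448 CPM in CKO. Summed endothelial markers went from between 4037 and 4258 to between 2012 and 2299 CPM in WT, and from between 3735 and 4413 to between 1934 and 3083 CPM in CKO. Summed goblet markers went from between 91.7 and 170 to between 1329 and 1958 CPM in WT, and from between 30.2 and 132 to between 1235 and 1773 CPM in CKO. Among epithelial, endothelial and immune lists no marker was at 0 in any group. The part of these shifts in the junction values was not tested.

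Exon length moved with the CRE response over the whole transcriptome. Among tested protein-coding genes, the WT median log2 fold change was 0.35 in the quintile with the shortest exons and 0.15, 0.01, -0.12 and -0.38 in the next quintiles. In CKO these medians were 0.27, 0.13, 0.01, -0.09 and -0.27. Relative to WT_PBS, the shortest and longest quintiles of the WT_CRE libraries had medians of 0.37 and -0.40, 0.40 and -0.44, and 0.27 and -0.29. The CKO_CRE libraries had 0.13 and -0.16, 0.43 and -0.47, and 0.17 and -0.19, with replicate 2 the most tilted of all 12 libraries. Tjp1 and Pard3 belong to the longest quintile and Cgn to the next, Ocln, Tjp3 and Cdh1 to the middle one, F11r and Marveld2 to the second shortest and Epcam to the shortest.

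A fit centred on genes of like exon length, chosen after the data were seen, kept the direction of all 9 genes in WT. The changes became -1.13 for Ocln, -1.01 for Tjp1, -0.73 for F11r, 0.69 for Tjp3, -0.64 for Cgn and -0.52 for Marveld2, each with an adjusted p of at most 0.0134. Pard3 shrank from -0.88 to -0.33 and Epcam from 0.46 to 0.25, the latter no longer called. In CKO, Pard3 was -0.02 (adjusted p = 0.872) and Ocln, Tjp1 and Tjp3 were -0.61, -0.50 and 0.95. F11r, from the second shortest quintile, moved further from 0 in both genotypes. Centred on length and without CKO_CRE replicate 2, 5 genes were called in CKO minus WT under CRE and 5 in the interaction. What sets the length relation was not tested.

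**Figure D5:**
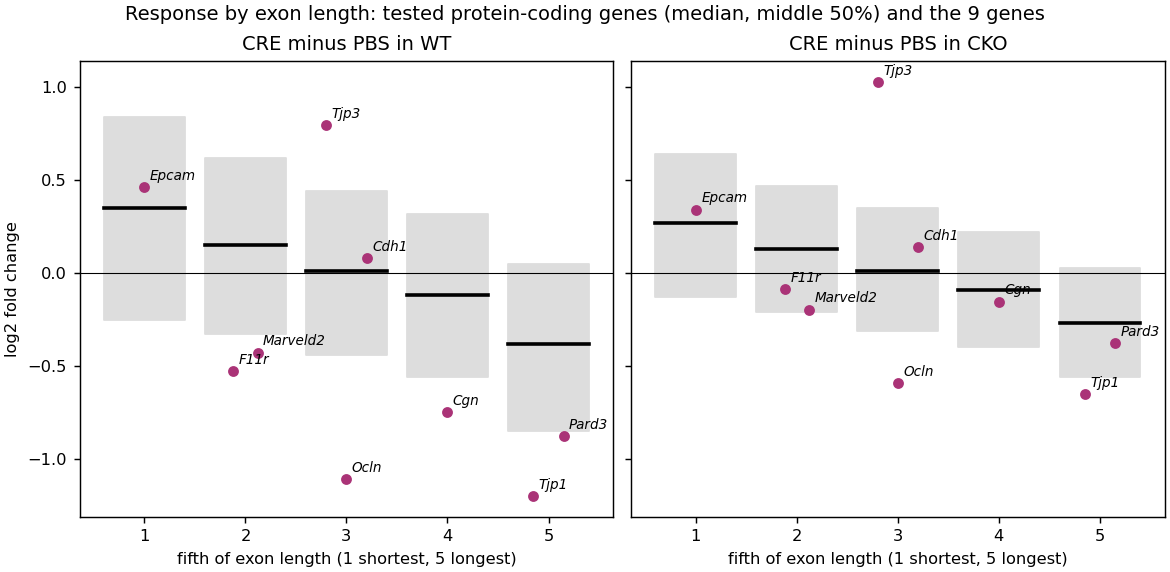
Log2 fold change (vertical axis) of the 9 genes placed in the quintile of exon length they belong to (horizontal axis), for CRE minus PBS in WT and in CKO, over the median (black line) and middle 50% (grey) of the tested protein-coding genes. Ocln and Tjp3 lie outside the grey band of the middle quintile in both panels, while Pard3 and Epcam lie near or inside the band of theirs.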

How the data were processed

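The deposited values were read counts per gene for 54532 Ensembl identifiers and 12 libraries. Per the labels' protocols, poly(A) RNA was made into libraries with an NEBNext Ultra RNA kit. Per the submitters' processing notes the authors used fastp, STAR and mm10. The counting tool, its strand setting and its handling of multiply mapped reads were not given in the sources used here, so reads of overlapping genes on opposite strands may not be separable.

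Symbols, positions and exon lengths came from GENCODE M21 (GRCm38), which lacked 37 of the identifiers. The quasi-likelihood F test of edgeR 4.0.16 under R 4.3.3 was run on a joint fit of the 12 libraries (TMM, filterByExpr, 1 mean for each group). p was adjusted by Benjamini-Hochberg over 17473 genes, and a gene was called below 0.05. Where no other tool is named, p-values are edgeR's. The biological coefficient of variation was 17.4%. CPM uses TMM-scaled library sizes and is given as mean ± SD over 3 libraries, and log2 fold changes as ± SE. Intervals cover the spread between libraries.

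Alternatives were DESeq2 1.42.0 size factors and Wald test, limma 3.58.1 voom with quality weights, no filter, a replicate block, a fit of only the groups compared, sex (from Y-linked counts) as a covariate and each library left out. Fits centred on the median of genes in 20 bins of exon length were added after the data were seen. Transcripts were aligned with blastn 2.17.0, counting copies at 98% or more over at least 200 bases. The fit was tested on simulated data.

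The 9 genes and all lists were chosen with earlier results of these data known. All 9 genes were named. List genes were named if called in WT under CRE, at most the 4 largest rises and falls per role, and so were the 2 genes most like each of the 9. A list gene eligible under this rule is not reported here.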

Additional observations from a re-analysis of the deposited data

How the results depend on the processing

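No result changed direction under any alternative while past the threshold. Across the 9 genes and 5 contrasts, 876 values kept their side of the threshold, 41 gained a call and 19 lost one. For CRE in CKO, fitting only the groups compared called 1 of the 9 genes (3 in the main analysis), 27 partners (41) and 3812 genes in all (6830). For CKO minus WT under PBS, 19 genes were called in all, against 114 by the DESeq2 Wald test, 146 by limma-voom, 89 without a filter, 74 with only the groups compared and 54 with length centring without CKO_CRE replicate 2. For CKO minus WT under CRE, 0 of the 9 genes, 0 partners and 160 genes in all were called. The Wald test called 1, 6 and 838, limma-voom 7, 41 and 7645, no filter 1, 6 and 691, and length centring without CKO_CRE replicate 2 called 5, 27 and 4569. Only the groups compared gave 29 genes in all, and length centring alone gave 1 partner. For the interaction, where 0, 0 and 8 were called, limma-voom called 6, 30 and 4371, length centring without CKO_CRE replicate 2 called 5, 19 and 2315, and in all the Wald test called 128, no filter 81 and sex as a covariate 2. Length centring was chosen after seeing the data. The quality weights of limma-voom are estimated from these same counts, and the lowest, 0.122, fell on CKO_CRE replicate 2. Its calls are thus not independent of the fits that leave this library out. Why these tools differ was not tested. A fit of only the groups compared does not exist for the interaction, which uses all 4.

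Leaving out 1 library at a time gave 6 to 8 of the 9 genes called for CRE in WT, 2 to 4 in CKO, 0 to 0 under PBS, 0 to 5 under CRE and 0 to 6 for the interaction. Partners ranged from 44 to 53, 31 to 48, 0 to 0, 0 to 34 and 0 to 23, and all genes from 8529 to 10869, 4767 to 7778, 12 to 53, 38 to 5112 and 0 to 2660. The upper ends of the genotype comparison under CRE and of the interaction come from leaving out CKO_CRE replicate 2. Without CKO_CRE replicate 1 the interaction was called for 24 genes in all, and without any 1 of the other 10 libraries for 0 to 4. Over all genes the count under CRE fell lowest without WT_CRE replicate 1, to 38.

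Replicate numbers are shared between groups but the labels tie them to nothing. Same-numbered libraries of different groups had correlations of deviations from -0.03 to 0.18 (median 0.02), and 8 of 12 libraries correlated best with their own number. With the replicate block 8, 4, 0, 0 and 0 of the 9 genes were called in the 5 contrasts, the added call being Pard3 in CKO, and 0 genes in all for the interaction.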

Other observations

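Genes next to the junction genes on the chromosome gave a local view. Gtf2h2, a subunit gene of the general transcription factor TFIIH that ends 3928 bases from Ocln, read 15.5 ± 1.52 CPM in WT_PBS and 16.8 ± 1.08 CPM in WT_CRE (SD, n = 3). Rad17, a DNA damage checkpoint gene 193 bases from Marveld2, read 23.4 ± 1.65 and 24.7 ± 2.65 CPM. Neither was called for CRE in WT by edgeR (log2 changes of 0.12 ± 0.15 and 0.08 ± 0.10, adjusted p = 0.537 and 0.53), while Ocln and Marveld2, which lie between them, fell. Beside Tjp3, the mitochondrial ribosome gene Mrpl54 rose from 16.1 ± 0.78 to 29.5 ± 2.73 CPM (0.88 ± 0.19, adjusted p = 0.00236). At 19.5 CPM per kb of exon in WT_PBS, Mrpl54 belongs to the shortest quintile of exon length, where the WT median was 0.35. The part of exon length in its rise was not tested. On the other side of Tjp3, Pip5k1c, a phosphoinositide kinase gene, changed by -0.03 ± 0.08 (adjusted p = 0.724).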
